A study of Homo sapiens with 8 samples.

Results

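YAP1, WWTR1 (the gene of TAZ), the transcription factor gene TEAD1, the kinase genes LATS1 and LATS2 and 5 target genes (CYR61, CTGF, ANKRD1, AMOTL2 and AXL) were taken by gene symbol from the deposited tables. All 10 were present, among 19158 genes in each library, and CYR61 and CTGF carried these older symbols of CCN1 and CCN2. The cells were A549, an established wild-type line from a human lung adenocarcinoma, kept in medium with serum. Of 8 libraries, 4 came from untreated cells and 4 from cells given dexamethasone, a synthetic glucocorticoid, at 1 µM for 48 h. Replicates were numbered 1, 3, 4 and 5 in each group and all libraries carried the same batch label. The sample titles do not say what a replicate number stands for. The p-values describe the spread between replicates of 1 cell line.

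YAP and TAZ are coactivators without a DNA-binding domain of their own. In the nucleus they bind TEAD proteins, which recognise short DNA motifs near genes for growth, matrix and adhesion. The Hippo pathway restrains them: the MST kinases, with the scaffold SAV1, activate LATS1 and LATS2 with their MOB1 cofactors, and LATS phosphorylates YAP and TAZ, which then stay in the cytoplasm or are degraded. In epithelial cells the pathway responds to cell contact, cell shape and tension on actin, so mRNA levels alone do not give the activity of YAP or TAZ.

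RefSeq promoter windows (GRCh38.p14, the 250 bases before each annotated start) were on hand for 8 of the 10 members (not TEAD1 or CYR61). They are shown for 3 targets, because CTGF and ANKRD1 held the most copies of the TEAD motif GGAATG and AXL was the target that fell most. The motif stands in capitals, on either strand. The first is CTGF (chr6:131951373-131951622, minus strand), the second ANKRD1 (chr10:90921088-90921337, minus strand) and the last AXL (chr19:41218973-41219222, plus strand).
CTGF: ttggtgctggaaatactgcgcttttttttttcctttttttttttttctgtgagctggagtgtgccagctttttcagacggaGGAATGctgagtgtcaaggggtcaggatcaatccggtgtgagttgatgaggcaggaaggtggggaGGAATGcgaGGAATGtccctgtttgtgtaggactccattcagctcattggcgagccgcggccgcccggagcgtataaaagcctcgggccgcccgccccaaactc
ANKRD1: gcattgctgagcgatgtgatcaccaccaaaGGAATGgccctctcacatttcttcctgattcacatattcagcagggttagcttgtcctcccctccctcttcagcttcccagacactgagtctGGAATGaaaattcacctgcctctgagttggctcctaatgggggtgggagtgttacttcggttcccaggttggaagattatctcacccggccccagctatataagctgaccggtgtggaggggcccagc
AXL: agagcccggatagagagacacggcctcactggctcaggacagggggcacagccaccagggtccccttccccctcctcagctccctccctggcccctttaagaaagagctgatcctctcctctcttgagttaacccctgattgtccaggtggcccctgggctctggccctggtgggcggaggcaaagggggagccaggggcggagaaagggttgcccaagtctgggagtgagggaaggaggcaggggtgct
The CTGF window held 3 copies, at -169, -104 and -95 (first base, relative to the start), and the ANKRD1 window 2 copies, at -220 and -128. The AXL window printed held none, while a window at a later AXL start held 1 copy, and YAP1 and AMOTL2 held 1 copy each in 1 window. Among 35116 RefSeq windows of that length, 11.9% held at least 1 copy on either strand, 0.94% at least 2 and 0.0826% at least 3. The full palindromic glucocorticoid response element, searched with its 3-base spacer free, was in no window of these 8 members and in 0.327% of all windows. Its single arm AGAACA was in a window of LATS1 (2 copies) and in 12.4% of all windows. The AP-1 motif TGANTCA was in windows of ANKRD1 and LATS1, and in 6.57% of all windows. A match of letters is a description of the window and not a site of binding.

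Levels are FPKM (fragments per kilobase of transcript, scaled to library size), divided by 1 scaling factor per library. Differences are log2 changes of dexamethasone over untreated on the log2(FPKM + 1) scale, with their SE from a limma fit over 12161 genes, and a gene is called at a Benjamini-Hochberg adjusted p under 0.05. The spacing of the lowest FPKM values gave an estimated depth of 24850000 to 28700000 fragments per library. As a check of the treatment labels, FKBP5 and TSC22D3, which glucocorticoids induce, were 23.8 and 16.5 times as high after dexamethasone. Epithelial keratins were abundant, with KRT7 at a mean of 2008 FPKM, while EPCAM lay under 1 FPKM in every library (0.151 to 0.704). Summed fibroblast markers (8 genes, COL1A2 at 0 in all libraries) were at 3.25 to 4.83 FPKM in untreated and 1.02 to 1.28 FPKM in treated libraries. Summed leukocyte markers (5 genes, PTPRC and CD3E at 0 in all libraries) were at 5.31 to 8.05 and 2.28 to 3.21 FPKM, and summed endothelial markers (5 genes, none at 0 in all libraries) at 0.0641 to 0.181 and 0.0506 to 0.102 FPKM. Most of the fibroblast sum was COL1A1 (1.66 to 2.50 FPKM untreated, 0.267 to 0.422 treated) and THY1 (1.44 to 2.12 and 0.353 to 0.411). DCN went the other way, from 0 in all untreated libraries to 0.172 to 0.382 FPKM in treated ones. Most of the leukocyte sum was CD68 and ITGAM. All libraries were labelled as the A549 line, so the sums describe a few genes and are no measure of other cells, whose presence was not tested. The libraries numbered 5 stood apart from their groups on the second principal component (22.3 and 16.0, the others between -12.8 and 2.86). In them genes of low GC content were low: under 45% GC the median gene lay 0.53 (untreated) and 0.31 (dexamethasone) log2 units below the other 3 libraries of the group, and from 55% GC on it lay 0.53 and 0.32 above them.

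Of the 10 members, all passed the filter on low values and 7 were called, 5 higher and 2 lower after dexamethasone. Over all tested genes 26.7% were called, 12.4% higher and 14.3% lower. ANKRD1, YAP1, CTGF, LATS2 and WWTR1 rose, and AXL and CYR61 fell. TEAD1, LATS1 and AMOTL2 did not pass. The same 7 genes had no overlap between the 4 untreated and the 4 treated values after scaling, where 31.5% of tested genes had none. Before scaling between libraries 5 of the 7 had no overlap (LATS2, CYR61, CTGF, ANKRD1 and AXL). The share of all tested genes without overlap before scaling was not counted. The median log2 change of the members was 0.48, against 0.01 over all tested genes. With the GC trend of each library removed 7 members were called (36.8% of all genes), with AMOTL2 gained and WWTR1 lost. Without both libraries numbered 5 the count was also 7 (45.1%), and with a replicate block 8 (47.3%). It was 4 with no scaling (27.0%) and 4 without dexamethasone replicate 1, 3 or 4 (18.9% to 19.6%).

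**Figure D1:**
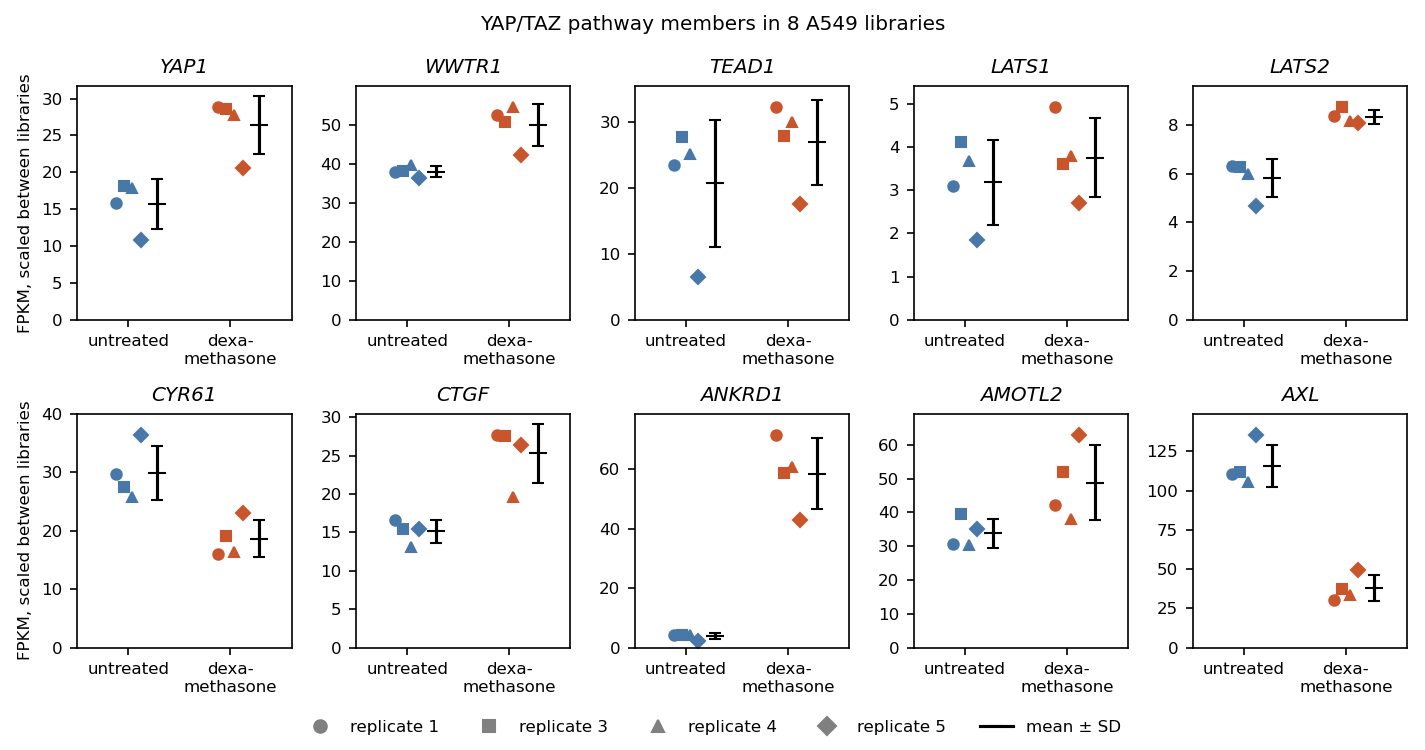
FPKM scaled between libraries (y axis, from 0) for each of the 10 members in the 4 untreated (blue) and 4 dexamethasone (orange) libraries, with a marker shape for each replicate number and the mean ± SD in black. ANKRD1 goes from 2.26 to 4.34 FPKM up to 42.8 to 71.5 FPKM and AXL from 105 to 135 FPKM down to 30.2 to 49.3 FPKM, while the 4 values of TEAD1, LATS1 and AMOTL2 in each group overlap.

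The coactivators come first. YAP1 (ENSG00000137693, chromosome 11, 102004954 to 102334398, plus strand) was at 15.8, 18.1, 17.9 and 10.9 FPKM without treatment (replicates 1, 3, 4 and 5), and at 28.8, 28.6, 27.8 and 20.6 FPKM in the treated ones. The lowest value of each group was replicate 5, and every treated value lay above every untreated one. The mean was 1.69 times as high after dexamethasone (15.7 ± 3.36 against 26.5 ± 3.94 FPKM, SD, n = 4 each), with a log2 change of 0.73 ± 0.184 (SE, limma adjusted p = 0.0164). That call was lost without dexamethasone replicate 1, 3 or 4 (limma adjusted p = 0.0509 to 0.0580) and with no scaling between libraries (adjusted p = 0.0616), at log2 changes of 0.68 to 0.73.

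WWTR1 (ENSG00000018408, chromosome 3, 149517235 to 149736714, minus strand), which encodes TAZ, was at 37.9, 38.2, 39.6 and 36.2 FPKM without treatment (replicates 1, 3, 4 and 5) and at 52.5, 50.7, 54.5 and 42.3 FPKM after dexamethasone. The untreated values lay close together, and the treated replicate 5 was the nearest to them. The rise was small, 1.316 times in the mean, with a log2 change of 0.38 ± 0.123 (SE, limma adjusted p = 0.0449). It was the least stable call among the members: without untreated replicate 1, 3 or 4 or dexamethasone replicate 1, 3 or 4 the limma adjusted p was 0.0736 to 0.137, and with no scaling it was 0.101. With the trend of each library on GC content removed, the log2 change was 0.19 (adjusted p = 0.149), and without both libraries numbered 5 it was 0.43 (adjusted p = 0.00187). The median log2 change of all genes under 45% GC was 0.26, and the transcripts of WWTR1 and YAP1 have 42.2% and 43.5% GC. With that trend removed YAP1 had a log2 change of 0.59 (adjusted p = 0.00222).

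WWTR1 stood above YAP1 in all 8 libraries, by a ratio of 2.11 to 3.33 in untreated and 1.77 to 2.06 in treated libraries. These ranges do not overlap, and the ratio was nearer to 1 after treatment. FPKM is per length, so the levels of both genes can be compared.

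Among the DNA-binding partners, TEAD1 (ENSG00000187079, chromosome 11, 12674591 to 12944483, plus strand) was at 23.4, 27.7, 25.0 and 6.45 FPKM without treatment (replicates 1, 3, 4 and 5) and at 32.2, 27.8, 30.0 and 17.6 FPKM after dexamethasone. Replicate 5 was lowest in both groups, and its untreated value lay far below the others. The log2 change was 0.51 ± 0.406 (SE, limma adjusted p = 0.379), which did not pass. It was 0.05 without untreated replicate 5 (adjusted p = 0.87), 0.69 without dexamethasone replicate 5 (adjusted p = 0.238) and 0.23 without both (adjusted p = 0.0783). TEAD4, a paralog with the same DNA-binding domain, fell from 22.04, 19.9, 19.1 and 31.2 FPKM to 12.3, 14.4, 11.6 and 16.4 FPKM in the same order of replicates. Its groups did not overlap, and its log2 change was -0.70 ± 0.178 (SE, limma adjusted p = 0.0173), a call lost without dexamethasone replicate 1 or 4 (adjusted p = 0.0543 and 0.0579). TEAD2 (12.5 ± 3.21 and 9.05 ± 1.20 FPKM) and TEAD3 (2.7 ± 0.898 and 1.93 ± 0.377 FPKM, SD, n = 4 each) had log2 changes of -0.41 and -0.32 and did not pass (limma adjusted p = 0.113 and 0.206). TEAD2 passed with no scaling (adjusted p = 0.0333) and without both libraries numbered 5 (adjusted p = 0.0144). Summed over the 4 TEAD genes, the level was 56.8 to 61.0 FPKM in untreated and 47.1 to 55.2 FPKM in treated libraries. TEAD4 held 39.2% ± 9.41 of that sum in untreated and 26.8% ± 5.77 in treated libraries, and TEAD1 35.0% ± 16.2 and 51.7% ± 10.02 (SD, n = 4), with ranges that overlap for each.

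**Figure D2:**
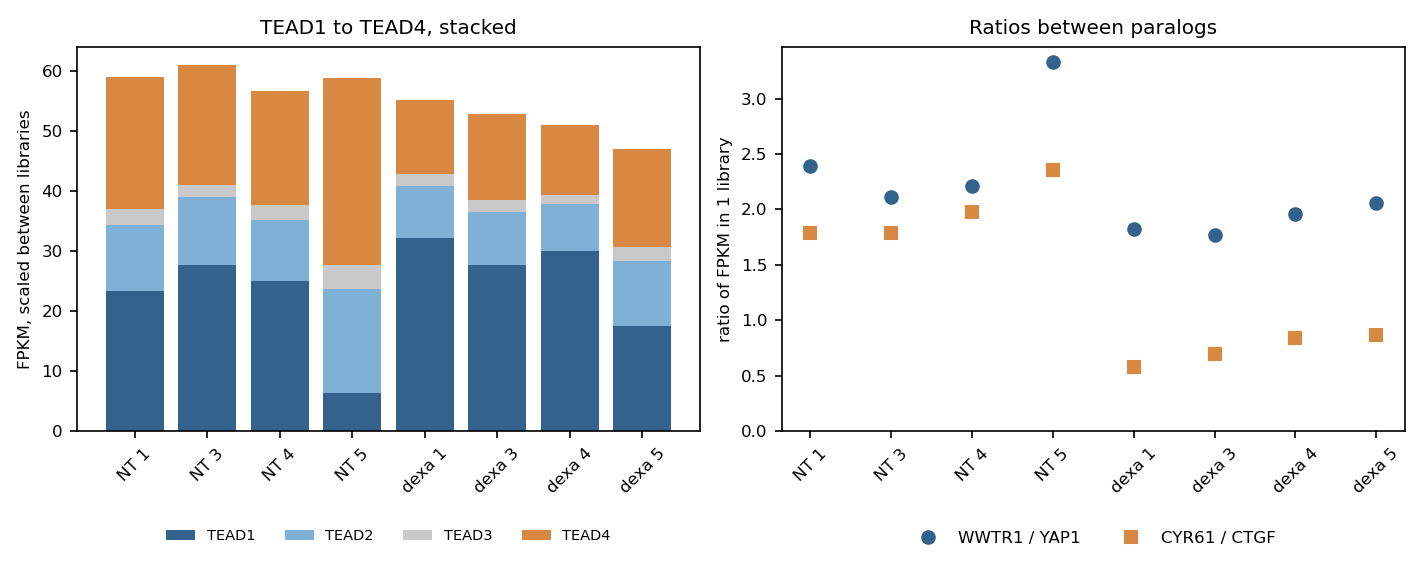
Left, FPKM scaled between libraries of TEAD1 to TEAD4 stacked for each library (NT, untreated; dexa, dexamethasone; number, replicate). Right, the ratio of WWTR1 to YAP1 (circles) and of CYR61 to CTGF (squares) within each library; the second ratio is 1.78 to 2.36 in the untreated and 0.582 to 0.871 in the treated libraries.

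VGLL4 and VGLL3, cofactors that bind TEAD, completed the list of coactivators, TEAD and VGLL genes. In that list 5 of 8 tested genes were called, 4 higher (YAP1, WWTR1, VGLL3 and VGLL4) and 1 lower (TEAD4), with a median log2 change of 0.36. VGLL3 had 1.51 ± 0.770 and 3.68 ± 0.968 FPKM (SD, n = 4 each) and a log2 change of 0.93 ± 0.256 (SE, limma adjusted p = 0.024). VGLL4, which competes with YAP for TEAD, had 13.9 ± 1.23 and 17.9 ± 0.777 FPKM and a log2 change of 0.34 (limma adjusted p = 0.0499). VGLL1 and VGLL2 were listed at 0 in all libraries. Over all tested genes 26.7% were called. The list's count was 2 without untreated replicate 1, 3 without untreated replicate 3 or 4, 0 without dexamethasone replicate 1 or 4 and 1 without dexamethasone replicate 3, where 18.9% to 23.9% of all genes were called. It was 2 with no scaling (27.0% of all genes) and 6 without both libraries numbered 5 (45.1%). The call of VGLL3 was lost without untreated replicate 1 or dexamethasone replicate 1, 3 or 4 (limma adjusted p = 0.0543 to 0.0712), and that of VGLL4 without any library other than untreated replicate 5 (0.0699 to 0.137). Both calls were also lost with no scaling.

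Of the LATS kinases, only LATS2 passed the test. LATS2 (ENSG00000150457, chromosome 13, 20973032 to 21061547, minus strand), both a restraint on YAP and TAZ and one of their target genes, was at 6.31, 6.29, 5.99 and 4.68 FPKM without treatment (replicates 1, 3, 4 and 5) and at 8.35, 8.72, 8.14 and 8.09 FPKM in treated ones. The treated values were tightly grouped and all above the untreated ones. The mean was 1.43 times as high, with a log2 change of 0.46 ± 0.124 (SE, limma adjusted p = 0.0217), and the call was lost without dexamethasone replicate 1, 3 or 4 (adjusted p = 0.0564 to 0.0778) and with no scaling (0.0791). LATS1 (ENSG00000131023, chromosome 6, 149658153 to 149718256, minus strand) was at 3.10, 4.11, 3.67 and 1.84 FPKM and at 4.92, 3.60, 3.79 and 2.7 FPKM. Its groups overlapped, its log2 change of 0.20 ± 0.209 (SE, limma adjusted p = 0.505) was smaller than its error, and with the GC trend removed it was -0.09. The ratio of LATS2 to LATS1 ranged from 1.53 to 2.54 in untreated and from 1.70 to 3.00 in treated libraries, with overlap. Whether the changes of the 2 kinases differ from each other was not tested.

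Upstream of LATS, 7 of 30 tested genes of the kinase core and its inputs were called, a share of 23.3% that is near the 26.7% of all genes. SAV1 (6.72 ± 1.83 and 10.9 ± 1.01 FPKM, log2 change 0.65 ± 0.193 SE, limma adjusted p = 0.0324), LATS2, WWC3 and the protocadherin gene FAT4 rose. FAT4 was low, at 0.279 ± 0.0679 and 1.26 ± 0.202 FPKM, with a log2 change of 0.82 ± 0.0918 (SE, limma adjusted p = 0.000175). NF2, which encodes the scaffold merlin and restrains YAP, fell from 31.9, 30.1, 30.0 and 39.4 FPKM to 17.2, 19.6, 20.1 and 23.7 FPKM in replicates 1, 3, 4 and 5. Its groups did not overlap, and its log2 change was -0.68 ± 0.142 (SE, limma adjusted p = 0.00664). LIMD1, an adaptor that binds LATS, fell from 20.9 ± 1.81 to 13.5 ± 1.22 FPKM (log2 change -0.59 ± 0.12 SE, limma adjusted p = 0.00551), as did its relative WTIP. The MST genes STK3 (3.85 ± 0.948 and 5.30 ± 0.889 FPKM) and STK4 (7.25 ± 2.13 and 9.11 ± 1.31 FPKM) did not pass, nor did MOB1A (26.1 ± 9.23 and 39.4 ± 8.56 FPKM) and MOB1B (1.35 ± 0.657 and 2.41 ± 0.699 FPKM, SD, n = 4 each). Without both libraries numbered 5 the list had 16 calls, with STK3, MOB1A and MOB1B among them, where 45.1% of all genes were called. It had 4 without untreated replicate 1 (20.7% of all genes) or with no scaling (27.0%), and 3 without dexamethasone replicate 1, 3 or 4 (18.9% to 19.6%). SAV1 lost its call when untreated replicate 1 or dexamethasone replicate 1, 3 or 4 was left out (limma adjusted p = 0.0563 to 0.0956), and with no scaling.

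AMOTL2 and its relatives hold YAP and TAZ at junctions and in the cytoplasm. AMOTL2 (ENSG00000114019, chromosome 3, 134355874 to 134375479, minus strand), itself a YAP target, was at 30.5, 39.5, 30.3 and 35.1 FPKM without treatment (replicates 1, 3, 4 and 5) and at 42.1, 52.1, 38.1 and 62.9 FPKM after dexamethasone. Only the treated replicate 4 lay within the untreated range. The log2 change was 0.50 ± 0.177 (SE, limma adjusted p = 0.065), which did not pass; with the GC trend removed it was 0.69 and passed (adjusted p = 0.00573). AMOTL1, its paralog, fell from 8.43 ± 0.727 to 5.13 ± 0.405 FPKM (SD, n = 4 each), with a log2 change of -0.62 ± 0.117 (SE, limma adjusted p = 0.00377). AMOT was too low to be tested. In the list of 29 tested anchors and turnover factors 4 were called higher (USP9X, TNKS, DLG1 and PATJ) and 3 lower (AMOTL1, CSNK1E and SCRIB), or 24.1%, near the 26.7% of all genes. USP9X, a deubiquitinase, had 16.8 ± 5.61 and 40.5 ± 5.79 FPKM and a log2 change of 1.27 ± 0.243 (SE, limma adjusted p = 0.00409), and TNKS, a tankyrase that acts on angiomotins, 0.51 (adjusted p = 0.0214). TNKS and DLG1 lost their calls without untreated replicate 1 or dexamethasone replicate 1, 3 or 4 (limma adjusted p = 0.0549 to 0.105). Both calls were also lost with no scaling, and that of DLG1 with no filter on low values. The list had 13 calls with the GC trend removed, where 36.8% of all genes were called, and 14 without both libraries numbered 5 (45.1% of all genes). It had 4 with no filter on low values (21.7%) or without untreated replicate 4 (23.6%). It had 2 without untreated replicate 1 or dexamethasone replicate 3 or 4 and 3 without dexamethasone replicate 1, where 18.9% to 20.7% of all genes were called.

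The matricellular targets CYR61 and CTGF, secreted proteins of the CCN family that bind integrins and serve as the usual readouts of YAP and TAZ, went in opposite directions. CYR61 (ENSG00000142871, chromosome 1, 85580761 to 85583962, plus strand) was at 29.8, 27.5, 25.9 and 36.4 FPKM without treatment (replicates 1, 3, 4 and 5) and at 16.1, 19.1, 16.4 and 23.0 FPKM after dexamethasone. Its highest treated value stayed below its lowest untreated one, and the log2 change was -0.65 ± 0.157 (SE, limma adjusted p = 0.0131). Its promoter was not searched for TEAD motifs, as no window was on hand. CTGF (ENSG00000118523, chromosome 6, 131948176 to 131951373, minus strand), whose promoter window holds 3 TEAD motifs, was at 16.7, 15.4, 13.1 and 15.5 FPKM and at 27.7, 27.5, 19.6 and 26.4 FPKM. Here every treated value lay above every untreated one, with a log2 change of 0.70 ± 0.144 (SE, limma adjusted p = 0.00624). Within each library CYR61 exceeded CTGF by a ratio of 1.78 to 2.36 when untreated, and lay below it at 0.582 to 0.871 after dexamethasone. Both calls held under every alternative tried, including each library left out, with log2 changes of -0.75 to -0.56 for CYR61 and 0.63 to 0.82 for CTGF.

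Others of the CCN family that were called rose: WISP2 (CCN5) from 7.35 ± 1.55 to 14.9 ± 2.20 FPKM (log2 change 0.94 ± 0.169 SE, limma adjusted p = 0.00302) and NOV (CCN3) from 1.02 ± 0.182 to 2.05 ± 0.360 FPKM (0.59, adjusted p = 0.00488, SD, n = 4 each). WISP1 was too low to be tested, and CCN6 was not analysed here. Of the receptors in that list, the integrin gene ITGB3 had 1.24 ± 0.296 and 0.719 ± 0.161 FPKM and a log2 change of -0.38 (limma adjusted p = 0.0403). Its call was lost without untreated replicate 1, 4 or 5 or dexamethasone replicate 1, 3 or 4 (0.0567 to 0.118), and with limma run without its trend and robust options. ITGB1 had 197 ± 68.9 and 293 ± 42.7 FPKM and did not pass (adjusted p = 0.119), but passed without both libraries numbered 5 (adjusted p = 0.0239). In all, 5 of 11 tested genes were called, 3 higher and 2 lower, beside 26.7% of all genes, with a median log2 change of 0.16.

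ANKRD1 (ENSG00000148677, chromosome 10, 90912096 to 90921276, minus strand), a nuclear and sarcomeric ankyrin-repeat protein and a sensitive YAP and TAZ target, moved most. It was at 4.34, 4.28, 4.29 and 2.26 FPKM without treatment (replicates 1, 3, 4 and 5) and at 71.5, 58.9, 60.8 and 42.8 FPKM after dexamethasone. Replicate 5 was lowest in each group, and the groups lay far apart. The mean rose 15.4 times, with a log2 change of 3.64 ± 0.209 (SE, limma adjusted p = 3.51e-06), the 17th largest rise of 12161 tested genes. In untreated cells it ranked 9 of the 10 members by level and in treated cells it ranked 1, above WWTR1 (50.0 ± 5.35 FPKM) and AMOTL2 (48.8 ± 11.1 FPKM), with overlapping values. Over all alternatives tried its log2 change was 3.45 to 3.97 and its call held.

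AXL (ENSG00000167601, chromosome 19, 41219203 to 41261766, plus strand), a receptor tyrosine kinase for the ligand GAS6, fell. It was at 110.4, 112, 105 and 135 FPKM without treatment (replicates 1, 3, 4 and 5) and at 30.2, 37.5, 33.7 and 49.3 FPKM after dexamethasone, so replicate 5 was the highest in both groups. The untreated mean was 3.07 times the treated one, with a log2 change of -1.61 ± 0.17 (SE, limma adjusted p = 0.000131). AXL was the most abundant member in untreated cells and the fourth in treated ones, where its values overlapped those of TEAD1 and lay above those of YAP1. The call held under every alternative tried, at -1.75 to -1.44. Of its family and ligands, PROS1, a ligand of the related receptors TYRO3 and MERTK, rose from 2.08 ± 0.770 to 8.16 ± 2.43 FPKM (log2 change 1.57 ± 0.259 SE, limma adjusted p = 0.00184). MERTK had 1.04 ± 0.147 and 0.640 ± 0.154 FPKM and a log2 change of -0.32 (adjusted p = 0.0384), lost without untreated replicate 1, 3 or 4 or dexamethasone replicate 1, 4 or 5 (limma adjusted p = 0.0754 to 0.108). The MERTK call was also lost with no scaling and with limma run without its trend and robust options. GAS6 (3.60 ± 1.03 and 4.30 ± 0.831 FPKM) and TYRO3 (3.98 ± 0.725 and 3.51 ± 0.821 FPKM) did not pass (adjusted p = 0.387 and 0.519). GAS6 passed with the GC trend removed (adjusted p = 0.0009) and without both libraries numbered 5 (adjusted p = 0.0471). Of these 5 genes 3 were called, 1 higher and 2 lower, beside 26.7% of all genes.

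**Figure D3:**
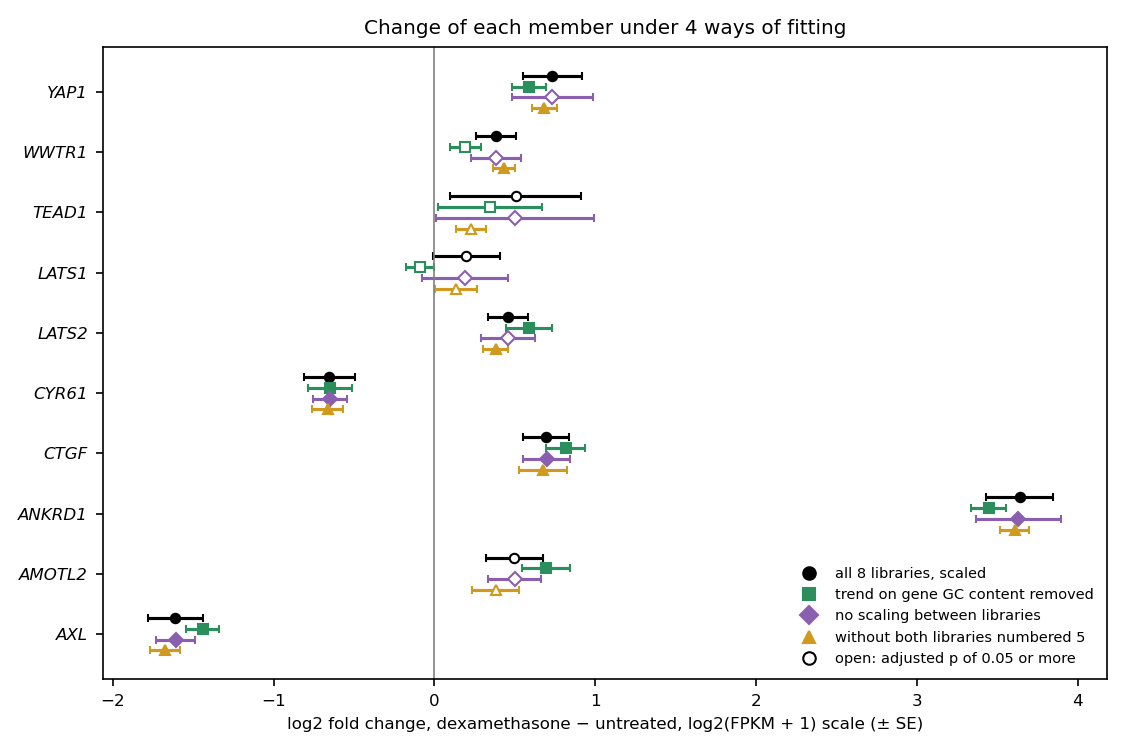
Log2 fold change of dexamethasone over untreated with its SE (x axis, log2(FPKM + 1) scale) for the 10 members under 4 ways of fitting; open markers have an adjusted p of 0.05 or more. ANKRD1, CTGF, CYR61 and AXL keep filled markers in all 4, while WWTR1 is open with the GC trend removed (0.19) and with no scaling (0.38).

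A wider list of 22 YAP and TAZ target genes, of which 6 are members, was split between directions. Of the 22, all tested, 14 were called, 8 higher and 6 lower, or 63.6% beside 26.7% of all genes, with a median log2 change of 0.20. Among the 16 that are not members 5 were called higher (CCDC80, RBMS3, CRIM1, GADD45A and ASAP1) and 4 lower (IGFBP3, FJX1, NUAK2 and FOXF2). CCDC80, a secreted matrix-associated protein, rose from 4.14 ± 0.416 to 16.6 ± 2.16 FPKM (log2 change 1.77 ± 0.132 SE, limma adjusted p = 1.40e-05). RBMS3, an RNA-binding protein, was low at 0.348 ± 0.109 FPKM and rose to 2.19 ± 0.615 FPKM (1.23 ± 0.141 SE, adjusted p = 0.000222). IGFBP3, which binds insulin-like growth factors, fell from 28.4 ± 2.09 to 8.32 ± 0.915 FPKM (-1.66 ± 0.121 SE, adjusted p = 1.18e-05). FJX1, a secreted relative of the fly Four-jointed protein, fell from 20.5 ± 0.801 to 9.29 ± 1.24 FPKM (-1.07 ± 0.125 SE, adjusted p = 0.000217). The count was 15 of 22 without both libraries numbered 5 (45.1% of all genes) and 16 with the GC trend removed (36.8%).

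**Figure D4:**
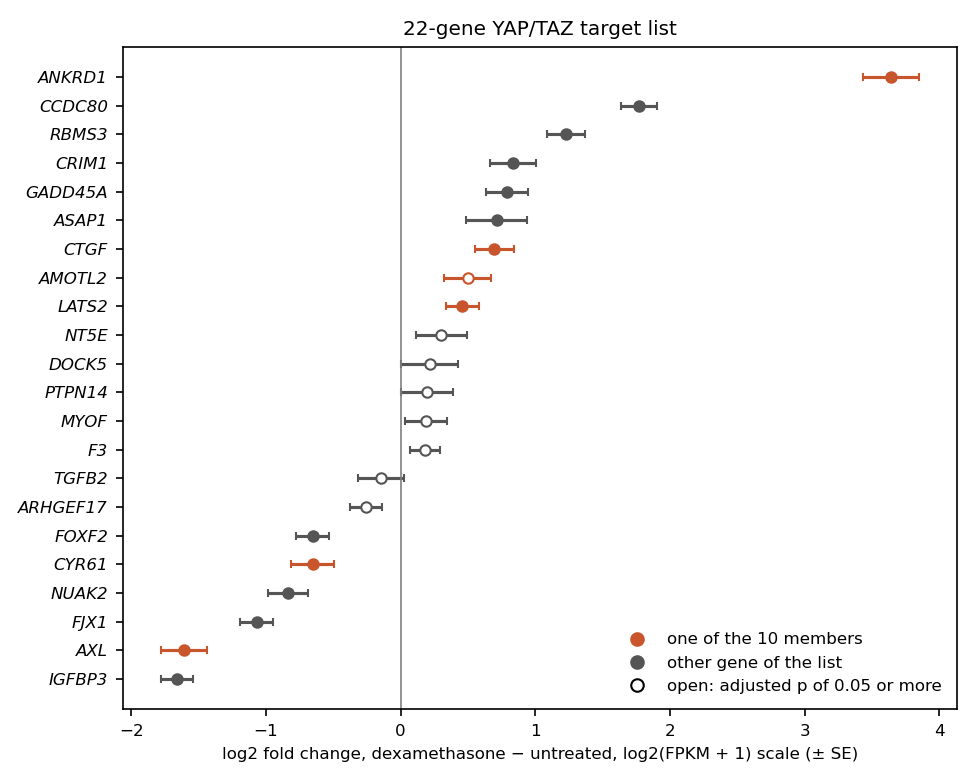
Log2 fold change of dexamethasone over untreated with its SE (x axis, log2(FPKM + 1) scale) for the 22 target genes, in order of size; orange marks the 6 members and open markers an adjusted p of 0.05 or more. Called genes lie on each side of 0, from IGFBP3 at -1.66 to ANKRD1 at 3.64.

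CYR61, CTGF and ANKRD1 also answer to serum response factor (SRF) and its actin-sensing MRTF partners, so genes of that axis were set beside them. Of 18 tested genes 6 were called, 3 higher (ANKRD1, CTGF and VCL) and 3 lower (CYR61, TPM1 and FHL2), or 33.3% beside 26.7% of all genes, and the median log2 change was -0.02. TPM1, a tropomyosin gene, fell from 165 ± 19.9 to 82.3 ± 5.06 FPKM (log2 change -0.99 ± 0.135 SE, limma adjusted p = 0.000536), while TPM2 had 119 ± 32.9 and 167 ± 36.8 FPKM and did not pass (adjusted p = 0.123). FHL2, a LIM-domain cofactor, fell from 25.0 ± 2.90 to 12.8 ± 0.816 FPKM (-0.91 ± 0.122 SE, adjusted p = 0.000474). VCL, the focal adhesion protein vinculin, had 62.6 ± 3.07 and 85.8 ± 10.8 FPKM and a log2 change of 0.44 (adjusted p = 0.0329), lost without untreated replicate 1, 3 or 4 or dexamethasone replicate 1, 3 or 4 (limma adjusted p = 0.0589 to 0.117). The VCL call was also lost with no scaling. TPM2 was called without untreated replicate 5 (limma adjusted p = 0.0159), without both libraries numbered 5 (0.00261), with no scaling (0.0292) and with the GC trend removed (0.00245). The list had 10 calls without both libraries numbered 5 (45.1% of all genes) and 9 with the GC trend removed (36.8%).

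In the libraries numbered 5 some members were the lowest of their group and others the highest. In untreated replicate 5 YAP1, WWTR1, TEAD1, LATS1, LATS2 and ANKRD1 were the lowest of their group and CYR61 and AXL the highest, and in dexamethasone replicate 5 the same 6 were the lowest, and CYR61, AMOTL2 and AXL the highest. The transcripts of the 6 have 39.0% to 51.8% GC and those of CYR61, AXL and AMOTL2 47.8% to 56.3%. TEAD1 lay 1.82 log2 units below the mean of the other untreated libraries, and YAP1 and ANKRD1 0.62 and 0.70 below. The part of GC content in that pattern was not tested.

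**Figure D5:**
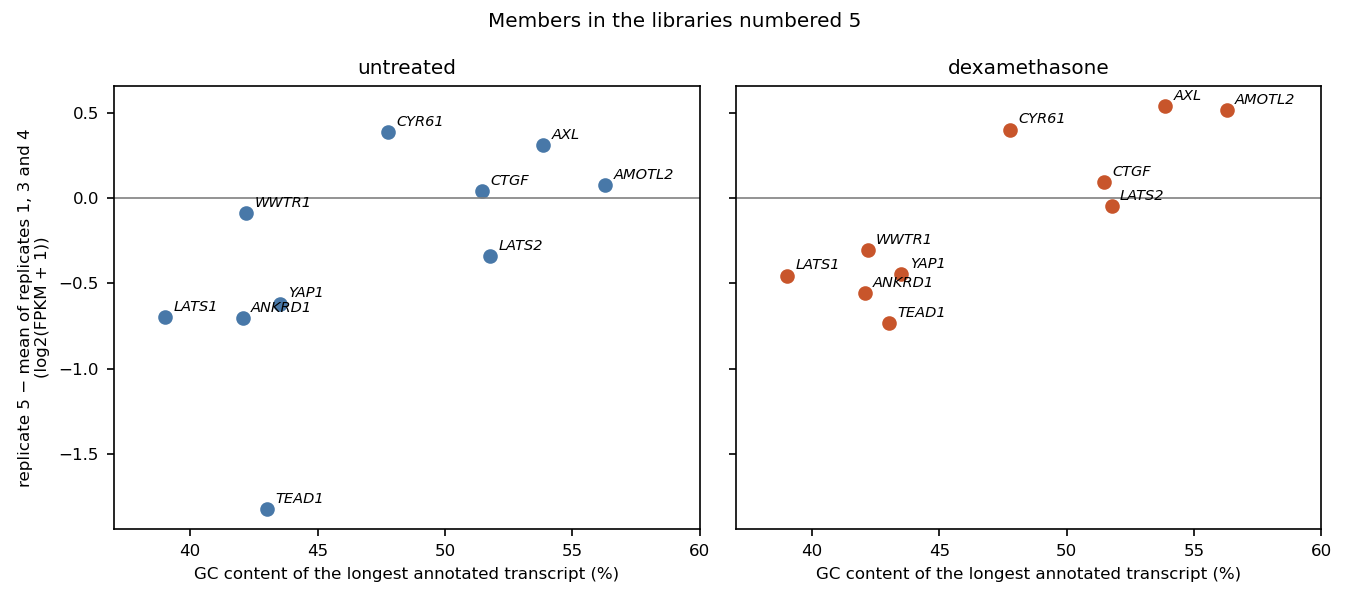
For each member, the log2(FPKM + 1) value of replicate 5 minus the mean of replicates 1, 3 and 4 of the same group (y axis) against the GC content of its longest annotated transcript (x axis, %), for untreated (left) and dexamethasone (right) libraries. YAP1, WWTR1, TEAD1, LATS1, LATS2 and ANKRD1 lie below 0 in each panel, TEAD1 lowest at -1.82 and -0.73, and CYR61 and AXL lie above it.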

How the data were processed

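RNA was measured in 8 libraries of A549 cells, 4 untreated and 4 treated with dexamethasone. Per the submitters' processing notes, reads were checked with FastQC 0.11.9, trimmed with cutadapt 3.4, aligned to GRCh38 with STAR 2.7.9a and quantified with featureCounts (Subread 2.0.3). The deposited values are labelled counts but are not whole numbers; they were read as FPKM from the values, as the step that made them is not given in the sources used here. The depth of each library was the one, among many tried, that put the largest share of low values within 0.1 of whole fragments. That share was 39.1% to 45.1%. The 20% given by chance holds for a fixed depth, so it is no fair measure for a largest share. No count test was run and depth is an estimate.

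The test took genes that reached 0.5 FPKM in 4 or more libraries (3 where libraries were left out). Libraries were put on 1 scale with trimmed means of M (trims 0.3 of M, 0.05 of A) and log2(FPKM + 1) was fitted with limma 3.58.1 in R 4.3.3 (trend, robust, two-sided, group as the only term). Changes of weakly expressed genes are understated on this scale. Fit and call rule were also run on simulated data with independent noise for each gene. The simulation held no GC trend and no library that stood apart, so it does not bear on those features of these libraries. GC content is that of the longest GENCODE v44 transcript. Values printed are FPKM after scaling, coordinates are GRCh38 as deposited. The use of strand is not stated: YAP1, WWTR1, TEAD1, LATS1, LATS2, CTGF and AXL overlap a gene on the opposite strand, and WWTR1, TEAD1, LATS2 and AMOTL2 one on their own. Named genes are the 10 members, TEAD2 to TEAD4, VGLL4, STK3, STK4, SAV1, MOB1A, MOB1B, NF2, the 4 non-members of smallest p in each of 7 lists, and FKBP5, TSC22D3 and PER1; WTIP, WWC3, PATJ, CSNK1E, SCRIB, CRIM1, GADD45A, ASAP1, NUAK2 and FOXF2 are named as called list members. The members, lists and tests were chosen with earlier results of these data known. A planned search of protein sequences was not run. PER1 rose 4.69 times (limma adjusted p = 3.92e-05). Alternatives were other pseudocounts, filters, scalings and variance models, GC trend removal, a replicate block and libraries left out.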

Additional observations from a re-analysis of the deposited data

Results flagged for a closer look

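In 11 of 92 groups of 4 values of the named genes, 1 library lay far from the other 3 relative to the range of the group. Independent, normally spread values would give about 1 in 20. The groups share the same libraries and many of the genes were named for a small p, so that rate is no test here. Of the 11, 6 were untreated replicate 5 and 4 dexamethasone replicate 5. Untreated replicate 5 was the lowest of its group for ANKRD1 (2.26 FPKM, the others 4.28 to 4.34), SAV1 (4.00 FPKM, the others 7.23 to 7.85), FAT4 (0.177 FPKM, the others 0.305 to 0.323) and AMOTL1 (7.35 FPKM, the others 8.68 to 8.90). It was the highest for FJX1 (21.7 FPKM, the others 19.95 to 20.2) and GAS6 (5.14 FPKM, the others 2.99 to 3.26). Dexamethasone replicate 5 was the lowest for YAP1 (20.6 FPKM, the others 27.8 to 28.8) and MOB1A (26.6 FPKM, the others 42.7 to 44.6), and the highest for TYRO3 (4.73 FPKM, the others 3.03 to 3.21) and TPM2 (222 FPKM, the others 145 to 152). Dexamethasone replicate 4 was the lowest for CTGF, at 19.6 FPKM against 26.4 to 27.7 FPKM in the others.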

How the results depend on the processing

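Over 19 alternatives the 10 members gave 190 values, of which 168 kept direction and side of the threshold, 17 lost the call, 3 gained it and 2 reversed. Those 2 were LATS1 with the GC trend removed, at -0.0917 both without and with the replicate block. Over all genes 3251 were called, 2317 to 3846 with 1 library left out, 5514 without both libraries numbered 5, 5747 with the replicate block and 5357 with the block and the GC trend removed. Of the 3251, 98.8% were called without both libraries numbered 5. The count of members was 7, 4 with no scaling, 4 to 7 with 1 library left out and 8 with the replicate block, where AMOTL2 joined (adjusted p = 0.00785). Of 114 distinct list genes tested 40 were called, 22 to 43 with 1 library left out, 64 without both libraries numbered 5, 65 with the replicate block and 61 with the block and the GC trend removed. Beside these counts, the share of all tested genes called was 26.7%, with no scaling 27.0% and with 1 library left out 18.9% to 31.3%. It was 45.1% without both libraries numbered 5, 47.3% with the replicate block and 44.1% with the block and the GC trend removed. The cause of these shifts was not tested. With the replicate block TEAD2, STK3, MOB1A, MOB1B, ITGB1 and TPM2 gained a call, and TEAD1 did not (adjusted p = 0.0788). Replicate numbers were not taken as pairs in the main fit. Deviations from the group means correlated at 0.29, 0.07, 0.31 and 0.71 between libraries numbered 1, 3, 4 and 5. Between libraries of different numbers they correlated at -0.57 to 0.43, and not every library correlated best with its own number. Changes within the spread of 4 replicates, as for TEAD1 and LATS1, were not detectable here.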
